A study of Saccharomyces cerevisiae with 16 samples.

Results

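The 36 genes described here encode the cytoplasmic translation factors of budding yeast (Saccharomyces cerevisiae): the initiation factors eIF1, eIF1A, eIF2, eIF2B, eIF3, eIF4, eIF5, eIF5A and eIF5B, the poly(A) binding protein, the elongation factors eEF1A, eEF1B, eEF2 and eEF3, and the release factors eRF1 and eRF3. They were listed by gene name and role, with earlier results of these data known. All 36 were found among 6685 nuclear open reading frames (ORFs), and all 36 were among the 5881 whose level averaged 1 FPKM or more. FPKM is a count of sequenced fragments scaled to transcript length and to sequencing depth. It is a share of the RNA in a library and gives no amount per cell. A gene's share can fall because other transcripts rose, with its own amount unchanged. The libraries came from hda1∆ cells (labelled hda1-/-, strain YTK113), without the deacetylase that gives the Hda1 complex its activity, and from wild-type cells (strain YSB787), with 1 strain per genotype. The course had a raffinose stage in synthetic complete medium, a first galactose pulse sampled at 15, 30 and 120 min, a glucose stage sampled at 30 and 120 min, and a second galactose pulse sampled at 15 and 30 min. The labels mark the libraries of the second pulse only by a suffix on the galactose time, and their place in the course was taken from the study's design. Each genotype was sequenced once at each of these 8 stages, so no difference has a replicate check and no p-value is given. Every interval printed beside a fold is a 95% counting interval that leaves out the variation between cultures.

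In initiation, eIF2 brings the initiator tRNA to the small ribosomal subunit, eIF3 holds the assembly together, eIF4E with eIF4G and eIF4A recruits and unwinds the capped mRNA, and eIF2B recharges eIF2 with GTP. In elongation, eEF1A delivers aminoacyl-tRNA, eEF1B recharges eEF1A, eEF2 moves the ribosome along the mRNA, and eEF3 is an ATPase that yeast ribosomes need at each step. Genes of the translation machinery are known as growth genes of yeast, whose mRNA levels follow the quality of the carbon source.

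Of these proteins, eEF1A, eEF2 and eIF4A are each made from a pair of genes so alike that a short read often cannot be assigned to 1 of them, which is why the pairs are also given as sums. Between TEF1 and TEF2 2 of 1377 coding bases differed, between EFT1 and EFT2 4 of 2529, and between TIF1 and TIF2 6 of 1188. Of all windows of the length of a read, 86.5% of the TEF1 windows, 83.4% of the EFT1 windows and 73.9% of the TIF1 windows occurred more than once in the genome, against 0 in each of the other 30 members. The coding stretches of 60 bases below hold differing bases, shown in capitals, with the rest of each stretch identical in both copies. They come from RefSeq (build R64) at chrXVI:701326-701385 (plus strand) for TEF1, chrII:478403-478462 (plus) for TEF2, chrXV:575515-575574 (plus) for EFT1, chrIV:1243647-1243706 (plus) for EFT2, chrXI:555183-555242 (plus) for TIF1 and chrX:154436-154495 (minus) for TIF2.
TEF1: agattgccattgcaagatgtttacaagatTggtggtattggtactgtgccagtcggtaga
TEF2: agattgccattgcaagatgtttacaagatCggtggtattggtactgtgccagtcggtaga
EFT1: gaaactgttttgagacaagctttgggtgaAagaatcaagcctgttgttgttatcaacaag
EFT2: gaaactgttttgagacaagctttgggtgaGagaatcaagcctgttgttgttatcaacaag
TIF1: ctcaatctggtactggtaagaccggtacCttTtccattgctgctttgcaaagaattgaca
TIF2: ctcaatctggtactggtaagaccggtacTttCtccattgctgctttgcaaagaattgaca
In the deposited values TEF1 took 45.04 to 48.9% of its pair's sum in hda1∆ cells and 45.2 to 49.4% in wild-type cells, EFT1 47.0 to 50.2% and 46.8 to 49.3%, and TIF1 43.1 to 49.8% and 46.8 to 50.6%. Only the sums are free of the sharing of reads within a pair, so neither copy is given a change of its own.

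Between 181800 and 756278 fragments per library fell on the 36 genes, by the deposited coverage. HDA1 itself was at 0 to 0.162 FPKM in the 8 hda1∆ libraries and at 27.0 to 38.8 FPKM in the 8 wild-type libraries, which fits the labels. RNA genes took 8.88 to 15.7% of the gene bases, and this share differed most between the genotypes at 120 min of the first pulse, with 15.7% in hda1∆ cells and 10.2% in wild-type cells. Its part in the FPKM of the protein genes at that stage was not tested, and ratios scaled to the ORF sum are given where they move a result. HYP2 lies wholly under an ORF on the opposite strand, YEL034C-A, that was listed at 5.04 to 11.7 FPKM. Likewise 42.9% of SUI3 lies under YPL238C, listed at 1.10 to 4.90 FPKM. The paper describes its RNA sequencing as strand-specific, and the command line in the deposited files names no strand option.

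The mRNAs of eEF1A, eEF2 and eEF3 were the most abundant of the 36. As listed per gene, by the median over the 8 stages, TEF2 led with 6483 FPKM in hda1∆ cells and 8380 FPKM in wild-type cells, followed by TEF1 (5714 and 7130), YEF3 (1945 and 2758), EFT2 (1701 and 2269), EFT1 (1551 and 2008) and HYP2 (1191 and 1648). The place of each copy of a pair in this order depends on how the reads were shared, and the eEF2 sum lay above YEF3 in all 16 libraries, by 1.28 to 4.69 times. The lowest were TIF4632, one of 2 genes for eIF4G, at 61.2 and 62.3 FPKM, and GCN3, the alpha subunit of eIF2B, at 52.0 and 57.4 FPKM. Both genotypes thus had the same 6 genes on top and the same gene last. The 2 eEF1A genes alone made up 41.5 to 55.9% of the summed FPKM of the 36 genes.

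As a share of the FPKM of all nuclear ORFs, the 36 genes made up 4.53, 4.08, 3.91, 3.44, 3.66, 4.98, 2.70 and 1.997% in hda1∆ cells over the 8 stages in order (raffinose, first galactose 15, 30 and 120 min, glucose 30 and 120 min, second galactose 15 and 30 min). In wild-type cells the share was 4.96, 4.803, 4.81, 4.60, 4.17, 5.20, 3.18 and 2.009%. The share was thus lower in hda1∆ cells at every stage, by most at 120 min of the first pulse and hardly at all at 30 min of the second. It was highest after 120 min of glucose and lowest in the second pulse in both genotypes.

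**Figure D1:**
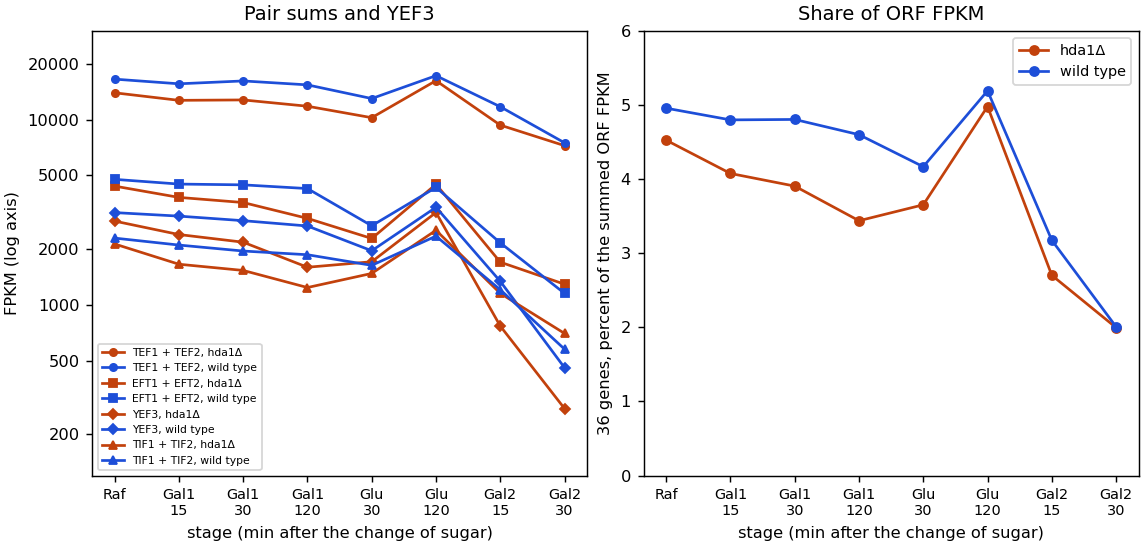
Summed FPKM of the gene pairs for eEF1A, eEF2 and eIF4A and FPKM of YEF3 (eEF3), and the share of all nuclear ORF FPKM taken by the 36 genes, in percent, at the 8 stages in hda1∆ and wild-type cells; each point is 1 library. The share was 1.997% in hda1∆ cells and 2.009% in wild-type cells at 30 min of the second galactose pulse, against 4.98% and 5.20% after 120 min of glucose.

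The first question was how these mRNAs differed between hda1∆ and wild-type cells at each stage. Ratios are log2((FPKM + 1) in hda1∆ cells / (FPKM + 1) in wild-type cells), and a gene was called higher or lower past 1.7-fold (below 0.588-fold for lower). 4 of the 8 stages gave no call among the 36. EFB1 was lower in hda1∆ cells at 15 min of the first pulse, EFB1 and TEF4 at 30 min, EFB1, TEF4, NIP1 and TIF5 at 120 min, and EFB1 and YEF3 at 15 min of the second pulse. In counts, 0, 1, 2, 4, 0, 0, 2 and 0 of the 36 were called lower over the 8 stages, against 1.11, 1.7, 2.41, 9.79, 1.39, 1.26, 5.92 and 4.69% of all tested ORFs. None of the 36 was called higher at any stage, against 4.9, 7.84, 9.35, 8.06, 5.95, 5.02, 3.52 and 3.32% of all tested ORFs. The share called lower among the 36 was 2.78, 5.56 and 11.1% in the first pulse and 5.56% at 15 min of the second, and at 120 min of the first and 15 min of the second pulse it was thus near the background. At 15 and 30 min of the first pulse it rested on 1 and 2 genes, too few to tell from the background. In TPM and with ORF-sum scaling the number at 15 min of the first pulse was 0.

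Within the threshold, most of the 36 lay below 0 at every stage but 30 min of glucose, and after centring on all ORFs at every stage but 30 min of the second pulse. Their median log2 ratio over the 8 stages was -0.06, -0.16, -0.27, -0.54, 0.03, -0.08, -0.31 and -0.10, beside 0.01, 0.09, 0.09, -0.14, 0.08, -0.03, -0.16 and -0.16 for all tested ORFs. The number of members below 0 was 29, 29, 35, 35, 14, 29, 33 and 26 of 36. After centring on the median of all ORFs it was 29, 33, 35, 35, 22, 27, 26 and 17, and after scaling to the ORF sum it was 19 in raffinose and 31 at 30 min of the first pulse. For 22 of the 36 the ratio was lower at each step from raffinose through 15, 30 and 120 min of the first pulse (15 after centring, 16 in TPM), and for 27 of the 36 the lowest of the 8 ratios was that at 120 min (19 after centring, 31 in TPM). After 30 min of glucose the median was 0.03, and it changed sign to -0.045 relative to the median of all ORFs. Relative to the median of all ORFs the medians at 15, 30 and 120 min of the first pulse were -0.25, -0.36 and -0.39, and the median at 30 min of the second pulse changed sign to 0.06.

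**Figure D2:**
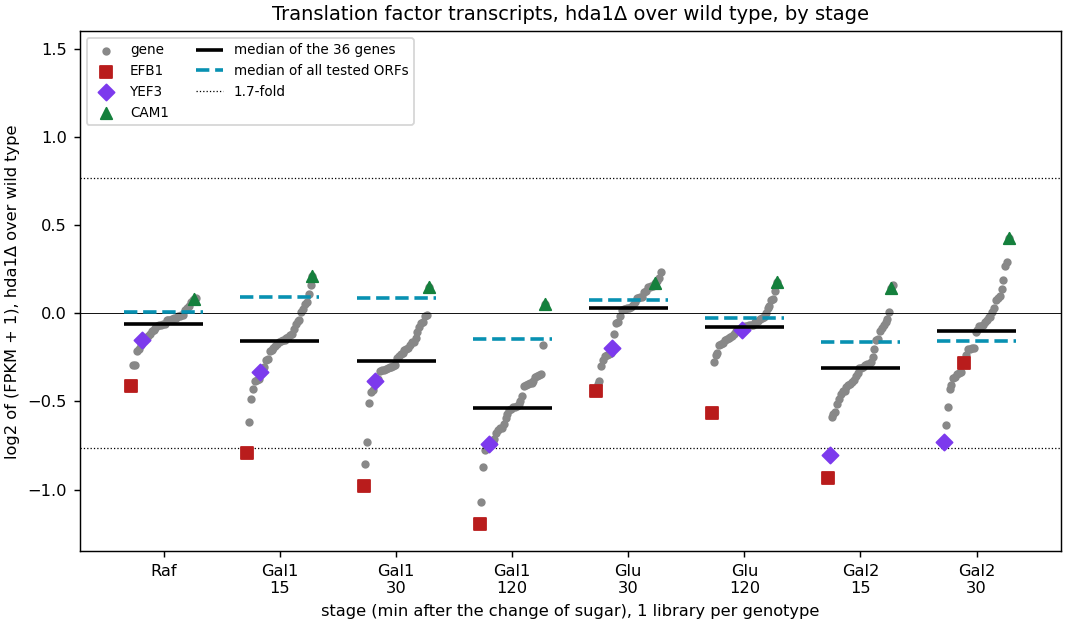
log2 ratio of FPKM + 1 in hda1∆ cells over wild-type cells for each of the 36 genes at each of the 8 stages, with EFB1, YEF3 and CAM1 marked, the median of the 36 genes, the median of all 5881 tested ORFs and dotted lines at 1.7-fold. The median of the 36 genes was -0.54 at 120 min of the first galactose pulse and 0.03 after 30 min of glucose. The median of all tested ORFs was -0.14 and 0.08 at these stages. 1 gene, CAM1, lay above 0 at all 8 stages.

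EFB1, YEF3 and GCD1, the gamma subunit of eIF2B, were below 0 at all 8 stages on the FPKM and the TPM scale, after scaling to the ORF sum and after centring on all ORFs. PAB1, NIP1 and TIF5 were also below 0 at all 8 stages in FPKM and TPM, but not after centring, nor, for NIP1, after scaling to the ORF sum. CAM1 was the sole gene above 0 at all 8 stages, and on the TPM scale its ratio at 120 min of the first pulse lay below 0. Its ratios ran between 0.05 and 0.42, within the 1.7-fold threshold at each stage.

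The second question was how the mRNAs moved with the carbon source within each genotype. Here a gene was called at 2-fold, with raffinose as the reference for the first galactose pulse, 120 min of galactose as the reference for glucose, and 120 min of glucose as the reference for the second pulse. Comparisons with the same reference share that library. In the first pulse 0, 1 and 7 of the 36 fell in hda1∆ cells at 15, 30 and 120 min, against 1.53, 3.33 and 15.3% of all tested ORFs. In wild-type cells 0 fell at each of these times, against 0.833, 1.29 and 1.75%. None rose in either genotype, against 4.39, 6.22 and 7.45% of ORFs in hda1∆ cells and 2.38, 3.15 and 4.11% in wild-type cells. The 7 genes that fell in hda1∆ cells at 120 min were EFB1, TEF4, SUP35, CDC33, NIP1, SUI1 and SUI3, a share of 19.4%, and SUI1 was the gene that had fallen at 30 min. After centring on all ORFs, whose median had shifted by -0.33, EFB1 and SUI1 alone passed 2-fold at 120 min. After scaling to the ORF sum SUP35 and CDC33 did not. The median log2 shift of the 36 was -0.21, -0.39 and -0.71 in hda1∆ cells and -0.14, -0.21 and -0.20 in wild-type cells, beside -0.00, -0.07 and -0.33 and -0.07, -0.14 and -0.15 for all tested ORFs. At 120 min all 36 shifts of hda1∆ cells lay below those of wild-type cells, and 33 of 36 after each genotype was centred on all ORFs.

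In glucose, 15 genes rose in hda1∆ cells by 30 min and 9 by 120 min, against 28.6 and 17.0% of ORFs. In wild-type cells 0 and 2 rose, against 10.1 and 3.71% of ORFs. None fell in FPKM, against 5.7 and 9.22% of ORFs in hda1∆ cells and 4.03 and 5.48% in wild-type cells. After centring EFT1 and EFT2, as listed per gene, were past 2-fold lower in wild-type cells at 30 min, each at -1.01 on the log2 scale. GCD1 was past 2-fold higher there in TPM (1.005) and with ORF-sum scaling (1.002). The share of 41.7% in hda1∆ cells at 30 min stood beside a median of 0.56 for all ORFs in the same comparison, and after centring 0 of the 36 passed 2-fold there and 5 passed at 120 min. With ORF-sum scaling 6 passed at 120 min in hda1∆ cells and 1 in wild-type cells. The median log2 shift of the 36 was 0.93 and 0.82 in hda1∆ cells and 0.29 and 0.31 in wild-type cells, and for wild-type cells at 30 min it changed sign to -0.05 on centring. All 36 shifts were higher in hda1∆ cells at both glucose times (32 and 34 after centring), and these comparisons share the hda1∆ library at 120 min of galactose. Taken over raffinose instead, a comparison added after the data were seen, the medians were 0.07 and 0.08 in hda1∆ cells and -0.02 and 0.09 in wild-type cells, with no gene past 2-fold.

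The second galactose pulse brought the largest shift of the course in both genotypes. By 15 min 21 of the 36 had fallen in hda1∆ cells, against 17.5% of ORFs, and 13 in wild-type cells, against 11.4%. In wild-type cells the number at 15 min was 19 after centring. With ORF-sum scaling the numbers at 15 min were 15 in hda1∆ cells and 11 in wild-type cells. By 30 min 32 had fallen in hda1∆ cells (88.9%), against 21.6% of ORFs, and 31 in wild-type cells (86.1%), against 19.4%. With ORF-sum scaling the numbers at 30 min were 31 in hda1∆ cells and 28 in wild-type cells. None rose, against 12.8 and 16.8% of ORFs in hda1∆ cells and 14.4 and 20.4% in wild-type cells. The median log2 shift was -1.11 and -1.70 in hda1∆ cells and -0.95 and -1.69 in wild-type cells, while the median of all ORFs was -0.05 and -0.00 in hda1∆ cells and 0.07 and 0.11 in wild-type cells. The same 31 genes fell in both genotypes at 30 min. CAM1, HCR1, HYP2 and TIF4632 were within 2-fold in both genotypes at that time. HYP2 in wild-type cells was close to the threshold at 30 min, at -0.98 on the log2 scale, and past 2-fold after centring (-1.09) and in TPM (-1.01). At 15 min HYP2 was among the wild-type genes called lower, at -1.001, though not with ORF-sum scaling (-0.91). GCD7 was at 0.492-fold in hda1∆ cells and 0.565-fold in wild-type cells at 30 min, past 2-fold in hda1∆ cells alone. With ORF-sum scaling GCD7 did not pass in hda1∆ cells either (-0.87 on the log2 scale). The difference itself was not tested.

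**Figure D3:**
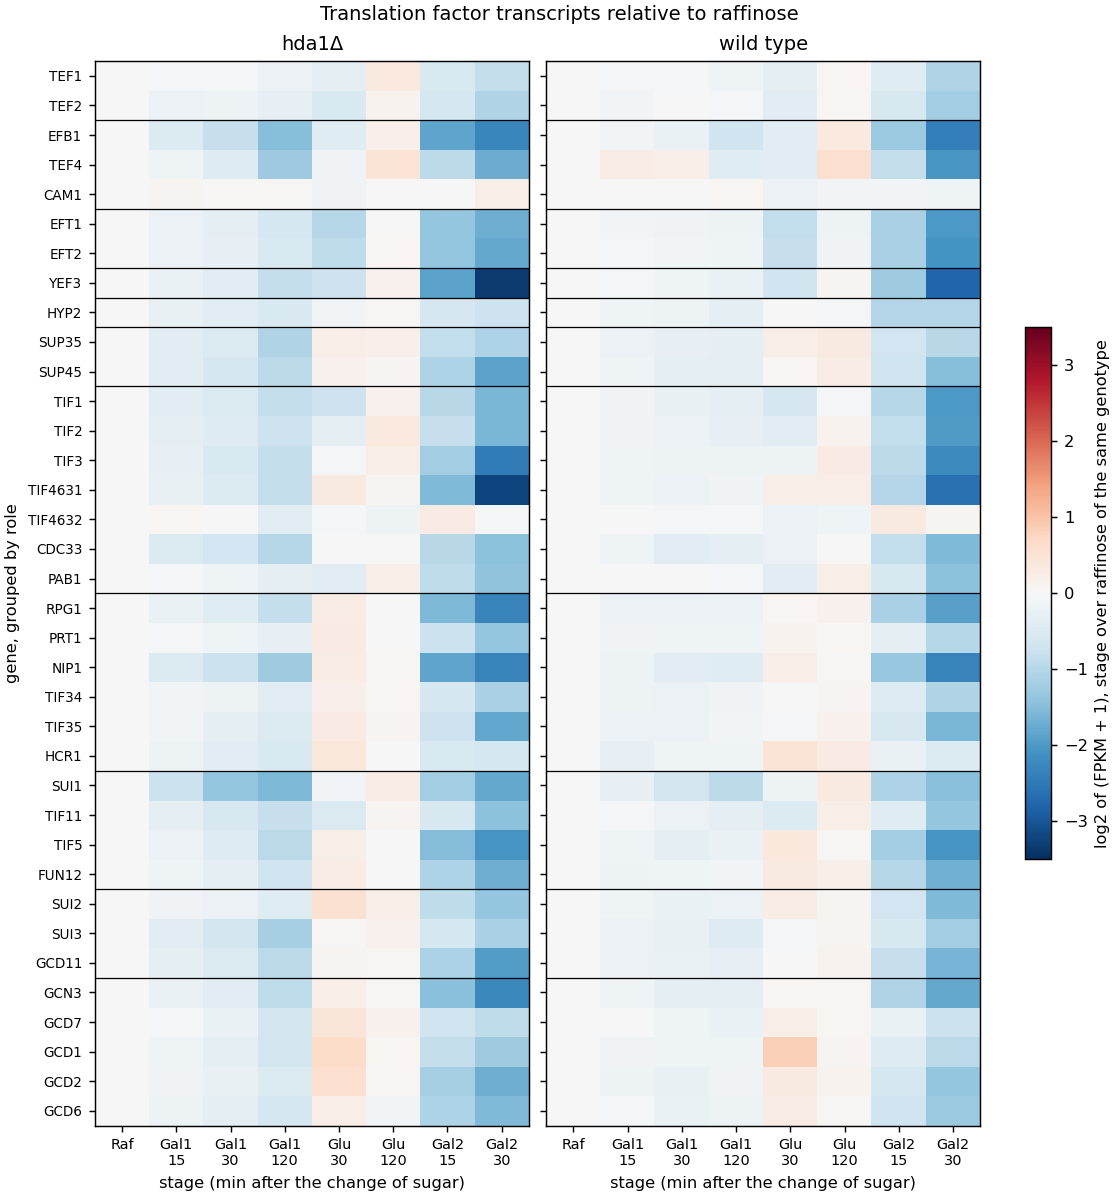
Heatmap of the log2 ratio of FPKM + 1 at each stage over raffinose of the same genotype, 1 row for each of the 36 genes grouped by role, hda1∆ cells on the left and wild-type cells on the right. The second galactose pulse is the lowest in both panels, with CAM1 and TIF4632 as the rows that stay near 0, and the column at 120 min of the first pulse lies lower in hda1∆ cells (median -0.71) and nearer 0 in wild-type cells (median -0.20).

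For eEF1A, the sum of TEF1 and TEF2 was 13962, 12713, 12777, 11816, 10248, 16234, 9343 and 7239 FPKM in hda1∆ cells over the 8 stages, against 16544, 15612, 16178, 15407, 12997, 17273, 11742 and 7501 FPKM in wild-type cells. It was lower in hda1∆ cells at each stage, with log2 ratios between -0.05 and -0.38, none past 1.7-fold. It fell in the second pulse by 1.17 on the log2 scale in hda1∆ cells and by 1.203 in wild-type cells at 30 min. The eEF2 sum of EFT1 and EFT2 was 4378, 3805, 3570.2, 2932, 2283, 4478, 1702 and 1294 FPKM in hda1∆ cells, against 4762, 4490.4, 4447, 4246, 2674, 4307, 2164 and 1155 FPKM in wild-type cells. Its log2 ratio between genotypes was -0.53 at 120 min of the first pulse and 0.16 at 30 min of the second, and at 30 min of the second pulse the sum had fallen by 1.79 in hda1∆ cells and by 1.90 in wild-type cells.

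YEF3, the single main gene for eEF3 (chrXII:636780-639914, plus strand, 1 exon), had 2834, 2398, 2181, 1597, 1710.3, 3154, 769 and 276 FPKM in hda1∆ cells and 3150.4, 3015, 2849, 2667, 1960.5, 3364, 1341 and 458 FPKM in wild-type cells. At 30 min of the second pulse it was at 0.0877-fold of its glucose level in hda1∆ cells (0.0859 to 0.0897) and at 0.136-fold in wild-type cells (0.134 to 0.139), the lowest fold of the 36 in each. Between the genotypes it was lower in hda1∆ cells at 15 min of the second pulse, at 0.574-fold (0.565 to 0.583). This call did not hold after centring (-0.64 on the log2 scale) or scaling to the ORF sum (-0.72). The ratios of 0.599-fold at 120 min of the first pulse and 0.603-fold at 30 min of the second did not pass the threshold in FPKM. In TPM the ratio at 120 min of the first pulse did pass, at -0.81 on the log2 scale. Relative to glucose YEF3 was thus at a smaller fraction than the eEF1A pair. The ratio of eEF1A to eEF3 mRNA was 26.2 at 30 min of the second pulse, against 5.15 after 120 min of glucose, in hda1∆ cells, and 16.4, against 5.13, in wild-type cells.

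The eEF1B complex, which exchanges GDP for GTP on eEF1A, contained both the members that differed most between the genotypes and the 1 that changed least over the course. EFB1, its catalytic alpha subunit (chrI:142174-143160, plus strand, 2 exons), had 1110, 800.1, 639.6, 395, 829, 1259, 311 and 226 FPKM in hda1∆ cells, against 1475, 1388, 1264, 905, 1127, 1864, 595 and 274 FPKM in wild-type cells. It was lower in hda1∆ cells at 15 min of the first pulse (0.577-fold, 0.559 to 0.595), 30 min (0.506, 0.490 to 0.524), 120 min (0.437, 0.419 to 0.456) and 15 min of the second pulse (0.523, 0.496 to 0.551). The call at 15 min of the first pulse did not hold with ORF-sum scaling (-0.73 on the log2 scale) or in TPM (-0.75), while those at the other 3 stages held on each scale. At the other 4 stages its ratio was 0.676 to 0.824, so it was below 1 throughout. The introns of EFB1 and TEF4 hold the snoRNA genes snR18 and snR38, which share 0 exon bases with them. Relative to glucose, EFB1 at 30 min of the second pulse was at 0.180-fold in hda1∆ cells and at 0.148-fold in wild-type cells.

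TEF4 and CAM1 are paralogs that both encode the gamma subunit. TEF4 (chrXI:282891-284455, plus strand, 2 exons) had 551, 499, 405, 228, 503, 772, 292 and 165 FPKM in hda1∆ cells, against 639.6, 764, 733, 481, 492, 935, 357 and 154 FPKM in wild-type cells. CAM1 (chrXVI:464401-465648, plus strand, 1 exon) had 363, 390.5, 375, 373, 336, 361, 359 and 415 FPKM in hda1∆ cells, against 343, 337, 338, 361, 298, 319, 324 and 309 FPKM in wild-type cells. TEF4 thus ranged 4.69-fold over the course in hda1∆ cells and 6.07-fold in wild-type cells, and CAM1 1.24-fold and 1.21-fold. Between the genotypes TEF4 was lower in hda1∆ cells in the first pulse, with 0.553-fold after 30 min (0.536 to 0.570) and 0.476-fold after 120 min (0.457 to 0.495). The ratio of TEF4 to CAM1 mRNA crossed 1 in both genotypes: at 30 min of the second pulse it was 0.399, against 2.13 after 120 min of glucose, in hda1∆ cells, and 0.501, against 2.92, in wild-type cells. At 120 min of the first pulse it was 0.613 in hda1∆ cells and 1.33 in wild-type cells, so the order of the 2 genes was the opposite there.

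The upstream windows of this pair are shown because the 2 genes for 1 subunit behaved so differently. Each is 250 bases long and lies upstream of the start codon without reaching it. They are read 5′ to 3′ on the gene's strand from RefSeq (R64), at chrXI:282441-282690 (plus strand) for TEF4 and chrXVI:463951-464200 (plus strand) for CAM1. The TEF4 window thus ends at base 282690, while the gene starts at base 282891. The stretch between a window and its start codon was not searched, so a motif missing from a window may still lie there. Capitals mark matches, on either strand, to the motifs searched: CACCC, any 3 bases, then CA for Rap1, an activator of ribosomal protein genes, GATGAG (PAC) and AAAATTTT (RRPE), which are known from ribosome biogenesis genes, AGGGG (the stress response element), ATTGTTC for the hypoxic repressor Rox1, and CGT, any 6 bases, then TGA for Abf1. No 2 matches overlap in the windows shown.
TEF4: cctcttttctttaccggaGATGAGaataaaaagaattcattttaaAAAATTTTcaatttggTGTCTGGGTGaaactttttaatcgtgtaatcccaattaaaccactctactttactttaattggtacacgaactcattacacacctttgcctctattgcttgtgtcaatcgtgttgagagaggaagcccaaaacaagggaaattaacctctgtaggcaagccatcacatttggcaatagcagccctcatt
CAM1: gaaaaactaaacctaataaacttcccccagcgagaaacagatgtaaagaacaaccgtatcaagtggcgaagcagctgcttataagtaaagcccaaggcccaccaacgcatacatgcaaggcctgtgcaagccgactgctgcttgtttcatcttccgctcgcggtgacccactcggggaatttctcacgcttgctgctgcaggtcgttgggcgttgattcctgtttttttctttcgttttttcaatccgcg
The TEF4 window held 1 match each to Rap1, PAC and RRPE, and the CAM1 window held none of the 6 motifs. A Rap1 match was present in 2.35% of the 5881 windows, in 25.5% of those of 137 ribosomal protein genes and in 4 of the 36 (11.1%): TEF1, TEF2, TEF4 and YEF3. PAC was present in 13.6% of all windows and 6 of the 36 (16.7%), RRPE in 4.74% and 7 (19.4%), AGGGG in 20% and 6 (16.7%), Abf1 in 11.2% and 9 (25%), and Rox1 in 5.99% and 1 (2.78%), PAB1. A match describes the letters of the window alone.

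eIF4G, the scaffold that joins the cap to the ribosome, showed the same kind of split between its 2 genes. TIF4631 had 221, 183, 159, 125, 278, 235, 74.6 and 23.0 FPKM in hda1∆ cells, against 227, 205, 196, 209, 259.9, 267, 111 and 36.2 FPKM in wild-type cells. TIF4632 had 62.4, 65.2, 61.7, 48.1, 60.7, 55.4, 75.7 and 59.3 FPKM in hda1∆ cells, against 63.4, 62.4, 62.2, 61.9, 54.6, 57.4, 78.5 and 68.0 FPKM in wild-type cells. TIF4631 fell in the second pulse to 0.102-fold in hda1∆ cells (0.0941 to 0.110) and 0.139-fold in wild-type cells (0.130 to 0.148), whereas TIF4632 was at 1.07-fold (0.999 to 1.14) and 1.18-fold (1.11 to 1.26). The ratio of TIF4631 to TIF4632 was 0.398 in hda1∆ cells and 0.539 in wild-type cells at 30 min of the second pulse, so that the minor gene had the higher level. Over the 6 stages before that pulse it was between 2.56 and 4.52 in hda1∆ cells and between 3.12 and 4.70 in wild-type cells. The corresponding windows, at chrVII:823609-823858 (plus strand) for TIF4631 and chrVII:409805-410054 (minus strand) for TIF4632, held PAC and RRPE in TIF4631 and AGGGG in TIF4632.
TIF4631: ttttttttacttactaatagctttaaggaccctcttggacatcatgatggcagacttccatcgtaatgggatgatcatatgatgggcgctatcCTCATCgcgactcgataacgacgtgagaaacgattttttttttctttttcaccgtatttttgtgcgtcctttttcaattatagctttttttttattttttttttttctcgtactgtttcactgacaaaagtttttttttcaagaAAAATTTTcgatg
TIF4632: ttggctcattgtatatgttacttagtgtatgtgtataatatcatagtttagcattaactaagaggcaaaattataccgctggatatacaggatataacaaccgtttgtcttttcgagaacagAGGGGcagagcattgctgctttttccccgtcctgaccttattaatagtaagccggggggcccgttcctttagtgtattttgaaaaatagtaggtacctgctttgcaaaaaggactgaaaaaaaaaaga

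eEF3 and eIF5A each have a second gene outside the 36, read here beside its partner. HEF3, the minor paralog of YEF3, shares 74.5% of its coding bases with YEF3 (798 of 3135 differ), and ANB1, the gene for eIF5A that is known from anaerobic cells, shares 90.9% with HYP2 (43 of 474 differ). None of their read-length windows was repeated in the genome. The most different stretches are shown to make clear that reads can be assigned to each gene, with differing bases in capitals: chrV:85953-86012 (plus strand) for HYP2, chrX:525045-525104 (minus) for ANB1, chrXII:636928-636987 (plus) for YEF3 and chrXIV:606467-606526 (plus) for HEF3.
HYP2: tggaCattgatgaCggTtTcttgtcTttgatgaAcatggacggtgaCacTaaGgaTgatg
ANB1: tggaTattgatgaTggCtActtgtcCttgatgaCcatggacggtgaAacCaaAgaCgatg
YEF3: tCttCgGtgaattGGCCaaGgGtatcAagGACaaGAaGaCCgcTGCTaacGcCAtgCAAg
HEF3: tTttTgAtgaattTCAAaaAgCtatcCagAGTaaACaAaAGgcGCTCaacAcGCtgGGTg
HYP2, the main gene for eIF5A, which helps ribosomes through stalling sequences, had 1504, 1244, 1137, 1031, 1413, 1541, 1009 and 902 FPKM in hda1∆ cells, against 1847, 1679, 1618, 1456, 1862, 1803, 901 and 914 FPKM in wild-type cells. Its log2 ratio between genotypes was -0.23 to -0.51 up to the end of glucose and 0.16 and -0.02 in the second pulse. ANB1 had 65.8, 56.6, 42.5, 33.2, 18.8, 68.2, 39.6 and 22.2 FPKM in hda1∆ cells, against 15.2, 15.0, 11.5, 11.8, 8.49, 13.7, 16.4 and 9.68 FPKM in wild-type cells. ANB1 was past 1.7-fold higher in hda1∆ cells at all 8 stages, by 4.12-fold in raffinose (3.23 to 5.31), 4.71-fold after 120 min of glucose (3.70 to 6.05) and 2.08-fold at the least, after 30 min of glucose (1.52 to 2.89). HYP2 remained 21.6 to 71.5 times as abundant as ANB1 in hda1∆ cells and 51.9 to 196 times in wild-type cells.

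HEF3 had 8.03, 14.003, 16.8, 21.2, 22.1, 9.14, 21.2 and 32.5 FPKM in hda1∆ cells, against 4.83, 5.33, 6.78, 8.83, 10.3, 5.40, 15.3 and 31.3 FPKM in wild-type cells. It was higher in hda1∆ cells at 4 stages, the first pulse (2.37-, 2.29- and 2.26-fold at 15, 30 and 120 min) and 30 min of glucose (2.04-fold), and at 1.04-fold at 30 min of the second pulse. Relative to 120 min of glucose HEF3 rose at 30 min of the second pulse, by 3.31-fold in hda1∆ cells (2.93 to 3.74) and 5.05-fold in wild-type cells (4.36 to 5.87), while YEF3 fell. The ratio of YEF3 to HEF3 was 8.25 at 30 min of the second pulse, against 311 after 120 min of glucose, in hda1∆ cells, and 14.2, against 526, in wild-type cells. HEF3 overlaps 1 other annotated ORF on the opposite strand. The ANB1 window, at chrX:525582-525831 (minus strand), held 3 matches to the Rox1 motif and 1 to RRPE, and that of HEF3, at chrXIV:605869-606118 (plus strand), held AGGGG, against a Rap1 and an Abf1 match in that of YEF3 (chrXII:636330-636579, plus strand).
ANB1: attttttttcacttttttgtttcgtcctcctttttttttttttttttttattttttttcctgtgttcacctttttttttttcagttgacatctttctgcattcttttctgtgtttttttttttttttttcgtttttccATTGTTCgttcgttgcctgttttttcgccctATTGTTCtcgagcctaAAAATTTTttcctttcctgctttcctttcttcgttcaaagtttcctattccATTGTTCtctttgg
HEF3: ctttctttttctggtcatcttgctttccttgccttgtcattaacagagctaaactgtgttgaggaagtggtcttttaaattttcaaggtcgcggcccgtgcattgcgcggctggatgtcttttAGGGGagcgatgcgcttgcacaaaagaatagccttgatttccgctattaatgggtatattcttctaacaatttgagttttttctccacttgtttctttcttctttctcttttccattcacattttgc
YEF3: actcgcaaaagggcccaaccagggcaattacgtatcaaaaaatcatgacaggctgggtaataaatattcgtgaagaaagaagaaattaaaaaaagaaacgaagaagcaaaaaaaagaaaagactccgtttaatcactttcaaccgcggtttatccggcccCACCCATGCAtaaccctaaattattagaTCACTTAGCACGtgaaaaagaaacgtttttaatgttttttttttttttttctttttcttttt

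**Figure D4:**
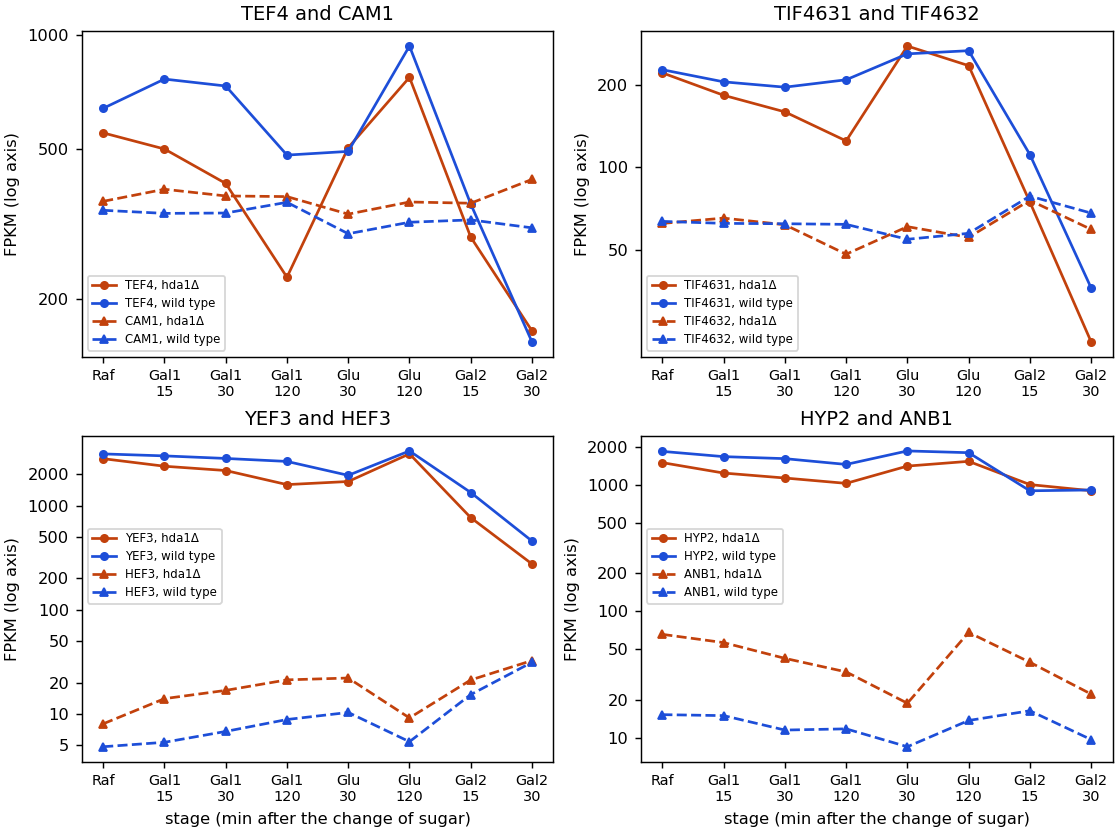
FPKM (log axis) of 4 pairs of paralogs, TEF4 and CAM1 (eEF1B gamma), TIF4631 and TIF4632 (eIF4G), YEF3 and HEF3 (eEF3) and HYP2 and ANB1 (eIF5A), at the 8 stages in hda1∆ and wild-type cells; each point is 1 library. TEF4 crosses CAM1 and TIF4631 crosses TIF4632 in the second galactose pulse of both genotypes, and ANB1 was at 18.8 to 68.2 FPKM in hda1∆ cells, above its 8.49 to 16.4 FPKM in wild-type cells.

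Release factors end translation, SUP45 (eRF1) by reading the stop codon and SUP35 (eRF3) as its GTPase. SUP35 had 179, 139, 125, 86.2, 212, 204, 98.5 and 84.5 FPKM in hda1∆ cells, against 181, 157, 148, 144, 209.5, 223, 113 and 90.99 FPKM in wild-type cells. SUP45 had 247, 187, 164, 128, 274, 266, 116 and 67.2 FPKM in hda1∆ cells, against 234, 213, 189, 188, 246, 279, 144 and 82.0 FPKM in wild-type cells. Neither passed 1.7-fold between genotypes in FPKM, the lowest ratio being 0.6001 for SUP35 at 120 min of the first pulse. In TPM SUP35 was called lower in hda1∆ cells there, at -0.80 on the log2 scale. Both rose in glucose in hda1∆ cells (2.45- and 2.12-fold at 30 min, when 28.6% of ORFs rose, and not past 2-fold after centring), with 1.45- and 1.304-fold in wild-type cells, and both fell in the second pulse in both genotypes.

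Among the other cap and poly(A) factors, the eIF4A helicase sum of TIF1 and TIF2 was 2133, 1658, 1535, 1241, 1479, 2528, 1155 and 702 FPKM in hda1∆ cells, against 2295, 2104, 1954, 1866, 1635, 2352, 1208 and 577 FPKM in wild-type cells. Its log2 ratio between genotypes was -0.59 at 120 min of the first pulse, within the threshold, and 0.28 at 30 min of the second, and it fell in the second pulse by 1.85 in hda1∆ cells and by 2.02 in wild-type cells. TIF3 (eIF4B, which assists eIF4A) had 301, 246, 210.0, 167, 288, 350.0, 128 and 54.4 FPKM in hda1∆ cells, against 298, 269, 262, 265, 265, 360.1, 158 and 62.7 FPKM in wild-type cells. At 30 min of the second pulse TIF3 was at 0.158-fold of glucose in hda1∆ cells and 0.176-fold in wild-type cells. CDC33 (eIF4E, the cap binder) had 426, 299, 269, 212, 422, 419, 215 and 156 FPKM in hda1∆ cells, against 434, 388, 336, 340.1, 378, 429, 239 and 147 FPKM in wild-type cells. Its fall to 0.498-fold at 120 min in hda1∆ cells was the smallest of the 7 that passed 2-fold there. PAB1 (the poly(A) binding protein) had 688, 673, 622, 539, 519.7, 810.3, 371 and 257 FPKM in hda1∆ cells, against 736, 739, 741, 714, 563, 856, 497 and 271 FPKM in wild-type cells. PAB1 ranged 3.15-fold over the course in hda1∆ cells and 3.16-fold in wild-type cells, and fell to 0.318- and 0.317-fold in the second pulse.

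In eIF3, NIP1 (eIF3c) moved most. It had 232, 166, 138, 97.8, 280.2, 244, 64.05 and 44.7 FPKM in hda1∆ cells, against 242, 215, 189, 179.8, 283, 248, 96.8 and 47.0 FPKM in wild-type cells, and was lower in hda1∆ cells at 120 min of the first pulse (0.546-fold, 0.523 to 0.571), a call that did not hold after centring (-0.73 on the log2 scale). RPG1 (eIF3a, the scaffold) had 165, 141, 123, 92.0, 197, 166, 54.7 and 32.5 FPKM in hda1∆ cells, against 166, 145, 144, 143, 173, 184, 74.6 and 43.5 FPKM in wild-type cells. RPG1 had the lowest FPKM of the 5 core subunits in all 16 libraries, and TIF34 (eIF3i) had the highest in all but 1, wild-type cells at 30 min of glucose, where NIP1 led. The highest core subunit was 1.47 to 3.51 times the lowest in hda1∆ cells and 1.63 to 3.10 times in wild-type cells, with the widest spread in the second pulse. PRT1 (eIF3b) had 184, 177, 164, 150.1, 226, 184, 109 and 69.6 FPKM in hda1∆ cells, against 189, 174, 171, 169.9, 207, 198, 148 and 94.0 FPKM in wild-type cells. TIF34 had 254, 237, 225, 195, 289, 268, 169 and 114 FPKM in hda1∆ cells, against 282, 247, 243, 259, 280.0, 302, 207 and 135 FPKM in wild-type cells. TIF35 (eIF3g) had 207, 195, 168, 147, 254, 220.0, 125 and 58.2 FPKM in hda1∆ cells, against 225, 194, 194, 210.0, 221, 248, 153 and 73.9 FPKM in wild-type cells. These 3 subunits fell in the second pulse to 0.381-, 0.429- and 0.268-fold in hda1∆ cells and to 0.478-, 0.448- and 0.301-fold in wild-type cells. HCR1 (eIF3j, a loosely bound subunit) had 149, 133, 115, 103, 197, 152, 104 and 97.0 FPKM in hda1∆ cells, against 146, 119, 131, 131, 204, 179, 124 and 104 FPKM in wild-type cells. HCR1 was at 0.640-fold in hda1∆ cells and 0.581-fold in wild-type cells in the second pulse, within the threshold.

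SUI1, TIF11, TIF5 and FUN12, which act at the start codon and in subunit joining, all fell by 30 min of the second pulse in both genotypes. SUI1 (eIF1, which guards start codon choice) was the first to pass 2-fold in hda1∆ cells, with 385, 227, 150.4, 129, 361, 463, 166 and 110.2 FPKM, against 389, 319.6, 250.3, 204, 346, 487, 184 and 139 FPKM in wild-type cells. It fell in hda1∆ cells to 0.392-fold of raffinose after 30 min of the first pulse (0.357 to 0.431) and 0.338-fold after 120 min (0.306 to 0.372), while 0.645 and 0.525 in wild-type cells did not pass 2-fold. SUI1 and EFB1 were also the 2 genes that rose in both genotypes after 120 min of glucose, SUI1 by 3.56-fold in hda1∆ cells and 2.38-fold in wild-type cells and EFB1 by 3.18- and 2.06-fold, where the wild-type call of EFB1 did not hold after centring or ORF-sum scaling. TIF5 (eIF5, the GTPase activator of eIF2) had 133, 116, 97.5, 68.8, 154, 131, 46.1 and 31.3 FPKM in hda1∆ cells, against 139, 126, 112, 119, 181, 144, 61.1 and 32.4 FPKM in wild-type cells. TIF5 was lower in hda1∆ cells at 120 min of the first pulse, at 68.8 FPKM against 119 FPKM in wild-type cells (0.583-fold, 0.541 to 0.629), and its counting interval reaches past the threshold. The call did not hold after centring or ORF-sum scaling. TIF11 (eIF1A, the partner of eIF1) had 437, 347, 297, 251, 306, 469.7, 295 and 160.1 FPKM in hda1∆ cells, against 419, 397, 363, 330.1, 301, 487, 309.6 and 162 FPKM in wild-type cells. FUN12 (eIF5B, which joins the ribosomal subunits) had 168, 151, 134, 103, 201.01, 167, 79.0 and 50.9 FPKM in hda1∆ cells, against 158, 139.7, 141, 149, 196, 182, 78.8 and 48.2 FPKM in wild-type cells. Between the genotypes, TIF11 and FUN12 in hda1∆ cells were at 0.760- and 0.693-fold of wild-type cells at 120 min of the first pulse.

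The 3 subunits of eIF2, SUI2, SUI3 and GCD11, are needed in equal numbers in the protein complex. Their FPKM lay within 1.16 to 2.24 times of each other in hda1∆ cells and 1.11 to 1.69 times in wild-type cells, and in both the widest spread was at 30 min of the second pulse. SUI2 (alpha) had 217, 199, 188, 163, 313, 249.9, 117 and 83.8 FPKM in hda1∆ cells, against 246, 222, 209.9, 215, 295, 261, 155 and 83.4 FPKM in wild-type cells. SUI3 (beta) had 289, 222, 184, 129, 299, 320.1, 188 and 130.3 FPKM in hda1∆ cells, against 295, 257, 249, 215, 281, 313, 199 and 128 FPKM in wild-type cells. GCD11 (gamma) had 229, 185, 161, 118, 244, 235, 105 and 58.3 FPKM in hda1∆ cells, against 236, 205, 200.3, 193, 238, 257, 133 and 75.5 FPKM in wild-type cells. In the second pulse at 30 min SUI3 was thus at 130.3, SUI2 at 83.8 and GCD11 at 58.3 FPKM in hda1∆ cells, against 128, 83.4 and 75.5 FPKM in wild-type cells. No eIF2 subunit passed 1.7-fold between genotypes in FPKM, the lowest ratio being 0.599 for SUI3 at 120 min of the first pulse. In TPM SUI3 and GCD11 were called lower in hda1∆ cells there, at -0.81 and -0.78 on the log2 scale.

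The 5 subunits of eIF2B, which exchanges GDP for GTP on eIF2, had the lowest levels as a complex, between 12.7 and 122 FPKM in hda1∆ cells and between 18.8 and 144 FPKM in wild-type cells. GCN3 (alpha, which yeast can live without) had 64.8, 55.1, 48.9, 34.8, 76.4, 66.9, 22.7 and 12.7 FPKM in hda1∆ cells, against 67.9, 60.8, 54.0, 53.0, 71.5, 71.5, 32.1 and 18.8 FPKM in wild-type cells. GCD1 (gamma) had 77.0, 69.6, 61.0, 48.6, 122, 81.3, 42.6 and 31.7 FPKM in hda1∆ cells, against 80.4, 73.9, 71.7, 72.6, 144, 85.3, 58.9 and 41.0 FPKM in wild-type cells. GCN3 had the lowest level of the 5 in all 16 libraries. After 30 min of glucose 4 of the 5 had risen in hda1∆ cells, GCN3 by 2.16-fold, GCD7 (beta) by 2.11-fold, GCD1 by 2.48-fold and GCD2 (delta) by 2.05-fold, with 1.80-fold for GCD6 (epsilon, the catalytic subunit), while the wild-type values were 1.34 to 1.97-fold. In the same comparison 28.6% of all ORFs rose, with a median of 0.56, and after centring none of the 5 passed 2-fold. All 5 subunits had their highest value of the 8 stages at 30 min of glucose in both genotypes, though GCN3 in wild-type cells was at 71.5 FPKM at both glucose times. GCD7 had 75.5, 71.9, 63.9, 48.2, 103, 83.8, 46.6 and 40.7 FPKM in hda1∆ cells, against 79.5, 79.9, 71.7, 66.9, 92.5, 83.7, 67.1 and 46.8 FPKM in wild-type cells. GCD2 had 74.6, 68.6, 62.1, 53.7, 111, 77.9, 32.7 and 22.3 FPKM in hda1∆ cells, against 75.3, 66.2, 62.7, 69.4, 94.4, 81.6, 48.6 and 28.6 FPKM in wild-type cells. GCD6 had 76.3, 67.8, 60.8, 49.7, 90.0, 71.0, 35.4 and 25.3 FPKM in hda1∆ cells, against 74.0, 69.9, 62.9, 65.1, 88.6, 76.1, 45.5 and 29.3 FPKM in wild-type cells. These 3 subunits were lowest at 30 min of the second pulse in both genotypes. In the second pulse GCN3 fell to 0.202-fold in hda1∆ cells and 0.273-fold in wild-type cells. The spread of the 5 subunits was 1.19 to 3.21-fold in hda1∆ cells and 1.18 to 2.49-fold in wild-type cells.

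**Figure D5:**
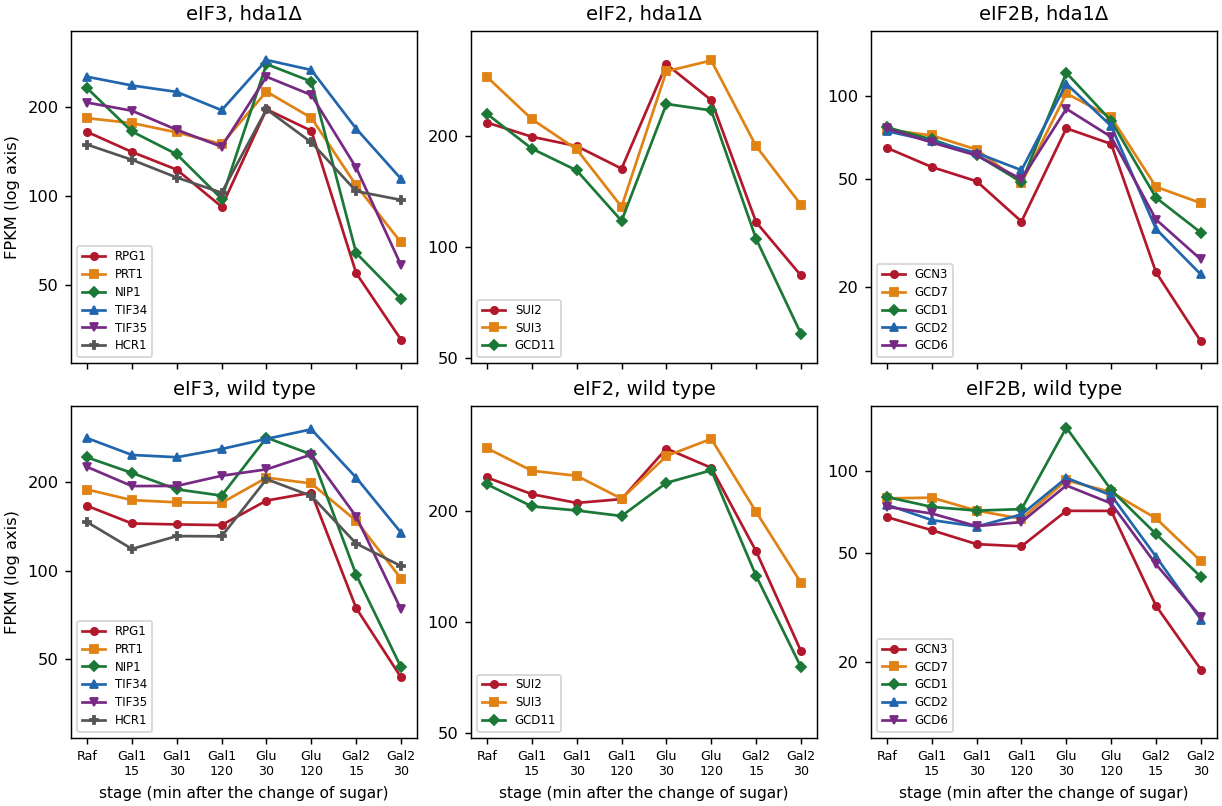
FPKM (log axis) of the subunits of eIF3, eIF2 and eIF2B at the 8 stages, hda1∆ cells in the top row and wild-type cells in the bottom row; each line is a subunit and each point 1 library. The lines of a complex lie farthest apart at 30 min of the second pulse, where GCN3 reaches 12.7 FPKM in hda1∆ cells and 18.8 FPKM in wild-type cells.

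The other genes of translation are given by their counts, to be read beside the shares of all ORFs. Among the 137 genes for cytoplasmic ribosomal proteins, 0, 1, 5, 32, 2, 0, 7 and 10 were lower in hda1∆ cells over the 8 stages, against 1.11, 1.7, 2.41, 9.79, 1.39, 1.26, 5.92 and 4.69% of all tested ORFs. None of them was higher, against 3.32 to 9.35%. Their median was -0.58 at 120 min of the first pulse and -0.36 at 30 min of the second. In the second pulse 130 of the 137 fell in hda1∆ cells by 30 min (median -2.49) and 129 in wild-type cells (median -2.19), against 21.6% and 19.4% of ORFs. Of 20 aminoacyl-tRNA synthetase genes, which charge tRNAs, 6 were lower in hda1∆ cells at 120 min of the first pulse, against 9.79% of ORFs, and 0 at the other stages. By 30 min of the second pulse 17 fell in hda1∆ cells and 18 in wild-type cells, against 21.6% and 19.4%. Of 10 genes that modify eIF5A, eEF1A or eEF2, such as DYS1, LIA1 and the DPH genes, 10 fell in hda1∆ cells and 9 in wild-type cells by 30 min of the second pulse, against the same shares. Of these 10, 3, 4 and 4 were lower in hda1∆ cells at 120 min of the first pulse and at 15 and 30 min of the second, against 9.79, 5.92 and 4.69% of ORFs. Of 13 regulators of initiation and elongation, 2 were lower in hda1∆ cells at 120 min of the first pulse, against 9.79% of ORFs, and 1, DBP1, a helicase related to DED1, was higher at 30 min, against 9.35%. By 30 min of the second pulse 8 fell in each genotype, against 21.6% and 19.4% of ORFs, and DBP1 rose in each, against 16.8% and 20.4%.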

How the data were processed

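Polyadenylated RNA was sequenced in 16 libraries, 1 per genotype and stage. Per the deposited file headers and the labels, the authors aligned reads with HISAT2 2.0.4 and estimated abundance with StringTie 1.3.0 on Ensembl release 86 (R64). The deposited values are FPKM and TPM, which are normalized, and per-base coverage. The members and gene lists were chosen with earlier results of these data known. Ratios were computed as log2((FPKM + 1)/(FPKM + 1)) in Python 3.11.15 with pandas 2.3.3, NumPy 2.4.6 and SciPy 1.17.1, over the 5881 nuclear ORFs averaging 1 FPKM or more, and called at 1.7-fold between genotypes and 2-fold between stages. Fragments for the 95% exact binomial intervals came from the deposited coverage times exon length over 202 bases, a fragment size inferred from steps in the coverage values since the sources used here do not state single or paired reads; their width depends on it, and they cover counting error only. With 1 library per group, no test was run. The rule for named genes was all members, with the 3 highest and 3 lowest of each comparison in full in every library; the copies of 3 near-identical pairs are given as sums. Alternatives were other pseudocounts, TPM, centring, ORF-sum scaling, stricter folds, summed pairs, counting intervals, no expression minimum and removal of overlapping members. Sequences were read from RefSeq (R64). Scripts were tested on simulated data.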

Additional observations from a re-analysis of the deposited data

Results flagged for a closer look

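In 5 shifts a member moved by more than 0.1 on the log2 scale in opposite directions in the genotypes, each from 1 library per side, and none of these differences was tested or passed 2-fold. Over raffinose, TEF4 was at -0.14 in hda1∆ cells and 0.26 in wild-type cells at 15 min of the first galactose pulse, and at -0.44 and 0.20 at 30 min. Over 120 min of galactose, TIF4632 was at 0.33 in hda1∆ cells and -0.18 in wild-type cells after 30 min of glucose, and at 0.20 and -0.11 after 120 min. TIF11 was at 0.29 in hda1∆ cells and -0.13 in wild-type cells after 30 min of glucose. The glucose values share the library at 120 min of galactose of each genotype.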

How the results depend on the processing

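Of the members' medians recomputed under the alternatives, 132 stayed within a 95% order interval of the main median over the members and 30 did not, and no called value changed sign. This order interval is taken over genes that are not independent, serves only as a yardstick for the alternatives, and is no replicate check. Pseudocounts of 0.1 and 5 FPKM, summed pairs and removal of the 2 overlapping members moved none out of it. The counting-interval rule was run on the counts of calls and the lack of an expression minimum on the shares of all ORFs, and neither moved one by over 1.5 times. With ORF-sum scaling the genotype medians were -0.011 in raffinose, -0.10 at 15 min of the first pulse, -0.048 after 120 min of glucose and -0.23 at 15 min of the second pulse, and the wild-type shifts were -0.10, -0.15 and -0.12 in the first pulse and 0.23 after 120 min of glucose. In TPM the genotype medians were -0.11 and -0.19 at 15 and 30 min of the first pulse, and the wild-type shift at 30 min was -0.23. Centred on all ORFs, the genotype medians were -0.25, -0.36 and -0.39 in the first pulse, -0.049 after 120 min of glucose, and -0.15 and 0.058 in the second pulse. The centred hda1∆ shifts were -0.39 at 120 min of the first pulse, then 0.38 and 0.54 in glucose, and the centred wild-type shifts were -0.069, -0.067 and -0.057, then -0.054 and 0.15, then -1.02 at 15 min of the second pulse. Over raffinose, added after the data were seen, the glucose shifts were 0.070 and 0.081 in hda1∆ cells and -0.018 and 0.091 in wild-type cells.

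The number lower in hda1∆ cells at 120 min of the first pulse was 4 in FPKM, 2 after centring and 2 at 2-fold. In TPM the number was 9, with YEF3, SUP35, TIF4631, SUI3 and GCD11 added. At 15 min of the first pulse the number was 0 in TPM, with ORF-sum scaling and at 2-fold. At 15 min of the second pulse it was 1 after centring and with ORF-sum scaling and 0 at 2-fold, and at 30 min of the first pulse 0 at 2-fold. The shifts in hda1∆ cells gave 2 lower at 120 min after centring, and at 3-fold 0 lower in the first pulse, 0 and 3 higher in glucose, and 5 and 20 lower in the second pulse. In wild-type cells the second pulse gave 1 and 20 lower at 3-fold. No paired analysis was possible because each comparison sets 1 library against 1, so that no library could be left out either; a fit over the 8 stages, which would take stages as replicates, was not run. The cause of these changes was not tested.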

Other observations

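Some regulators of translation did not follow the 36 genes in the second galactose pulse, and those named here were chosen after their values were seen. At 30 min of that pulse DBP1, a helicase related to DED1, was at 43.0 FPKM in hda1∆ cells, against 8.39 FPKM after 120 min of glucose, and at 36.8 FPKM in wild-type cells, against 8.52 FPKM. EAP1, which binds eIF4E, was at 69.0 FPKM in hda1∆ cells, against 41.4 FPKM in glucose, and at 64.4 FPKM in wild-type cells, against 45.4 FPKM. PBP1, which binds the poly(A) binding protein, was at 147 FPKM in hda1∆ cells, against 96.8 FPKM in glucose, and at 131 FPKM in wild-type cells, against 96.6 FPKM, and like EAP1 did not pass 2-fold. NEW1, a relative of YEF3, fell with it, to 12.5 FPKM in hda1∆ cells, against 196 FPKM in glucose, and to 14.2 FPKM in wild-type cells, against 213 FPKM.

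GRS1 and GCN20 were listed at 0 in all 16 libraries, and GLN4 at 0 in 12 of 16, with 120.3 to 146 FPKM in the other 4. GRS1 and GLN4 encode tRNA synthetases that growing cells use. These zeros are given as listed values, and the 3 genes were left out of the counts of their lists.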
